A study of Nasonia vitripennis with 6 samples.

Results

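Cytochrome P450 genes of the parasitoid wasp *Nasonia vitripennis* were compared between the venom gland (VG) and the ovary. The genes are those whose annotation contains the words cytochrome P450, which takes 102 of the 36329 genes of the official gene set. Of these, 101 are annotated as P450 enzymes and 1 as the NADPH-cytochrome P450 reductase, the protein that passes electrons to P450 enzymes of the endoplasmic reticulum. Annotations are by similarity to genes of other species, so a name such as 6a2 marks the closest named relative and several *Nasonia* genes share it. The study dissected both tissues from mated females of the Lab II strain, 1 to 3 days old, that had been exposed to hosts. Each tissue had 3 replicates, and each replicate pooled tissue from 40 to 50 wasps. By the labels the 2 groups differ in tissue, with no treatment. A tissue is a mixture of cell types, and in such samples fewer cells of a type and less RNA per cell cannot be told apart.

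P450 enzymes are haem proteins that add oxygen to small lipophilic molecules. Insects use them to make and break down ecdysteroids and juvenile hormone, to make cuticular hydrocarbons, and to clear plant toxins and insecticides. Insect P450 genes fall into clan 2 and the mitochondrial clan, which hold the ecdysteroid enzymes known from *Drosophila*, and into clans 3 and 4, which are larger and hold many genes linked to detoxification.

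Values are mean normalised counts, in which the reads on a gene were divided by a size factor for each library and averaged over the 3 libraries of the tissue. They are not divided by gene length, so an order of genes by these values is an order of read counts. Reads on genes per library were estimated as the summed tissue means times the smallest and the largest size factor. This gave 24519349 to 27549194 for the ovary and 15826324 to 28934210 for the VG. The estimate takes the libraries of a tissue as alike in composition and is not a count of reads. In the normalised values, 1 read was worth 0.129 to 0.145 of an ovary mean and 0.635 to 1.16 of a VG mean. The 10 highest genes took 38.2% of the summed VG means and 6.29% of the summed ovary means. Absence of reads allows an ovary mean of up to 0.435 or a VG mean of up to 3.49, which is 3 reads at the largest step and covers counting error only. Among germ line markers of the ovary, 9 of 10 were higher in the ovary, with Oskar at 5422 against 8.25 and vasa at 9788 against 39.4. The 34 venom-annotated genes had summed means of 8454 (ovary) and 586437 (VG). That VG sum is led by 1 acid phosphatase gene (Nasvi2EG009991) at 530881. By gene, 14 of the 19 compared venom-annotated genes were higher in the VG and 5 in the ovary, against 33.1% and 33.9% of all compared genes. The list takes genes by the word venom alone, and the gene with the highest VG mean is outside it. The fat body and haemolymph list (23 genes) summed to 11360 (ovary) and 165049 (VG). Its VG sum is led by a vitellogenin gene (Nasvi2EG010626) at 100996 and a transferrin gene (Nasvi2EG014104) at 47428. Of the 18 compared genes of that list, 9 were higher in the VG, 5 in the ovary and 4 within 2-fold. The keyword transferrin also took a pyruvate dehydrogenase phosphatase gene (Nasvi2EG014905), whose annotation contains acetyl-transferring. This gene, at 1036 (ovary) and 503 (VG), is not a transferrin. It is counted among the 23, the 18 and the 5 and in both sums. The hydrocarbon cell list (30 genes) summed to 37650 (ovary) and 11736 (VG). The ovary sum of the hydrocarbon cell list is led by 1 fatty acid synthase gene (Nasvi2EG000230) at 17730. By gene, 12 of the 25 compared hydrocarbon cell genes were higher in the VG and 10 in the ovary. limma called 9 of 14 tested higher in the VG and none in the ovary, against 36.3% and 19.4% of all tested genes. The test needs reads per library, which could be worked back only for ovary means up to 400. Ovary-high genes of the list such as Nasvi2EG000230 and Nasvi2EG009036 (4485) were above that limit and were not tested. The test therefore gives no count of genes higher in the ovary for this list. The part of other cell types in the P450 values was not tested.

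Reads were detected for 87 of the 102 genes. In all, 75 had reads in both tissues, 12 in the ovary alone and none in the VG alone, while 15 had no read. Over all genes, 45.3% had no read in either tissue, 9.57% had reads in the ovary alone and 3.92% in the VG alone. The 12 P450 genes read in the ovary alone are 11.8% of the 102, near that background. For 9 of the 12 genes read in the ovary alone, the ovary mean was under 3.49, so that absence from the VG was not detectable at this depth. The 15 genes without reads were spread over clan 3 (4 genes), clan 4 (4 genes) and the genes without a family number (7 genes). None of the 6 clan 2 or 6 mitochondrial genes was among them.

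**Figure D1:**
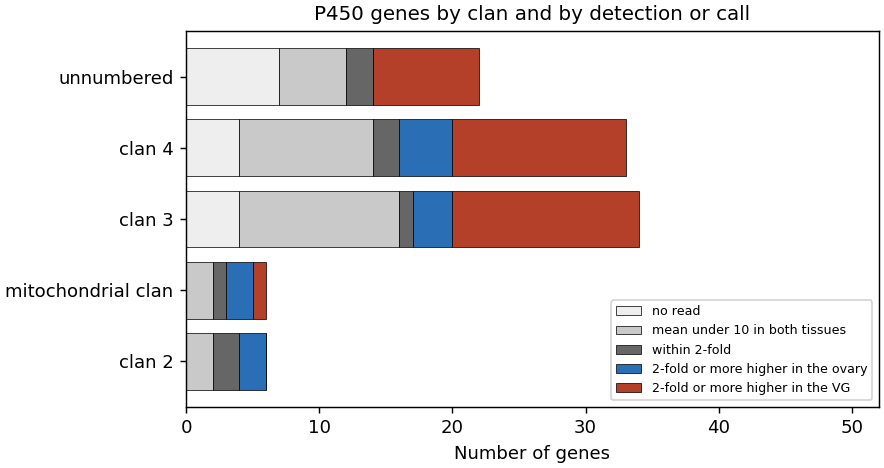
Number of P450 genes in each clan (horizontal bars, reductase left out), divided by detection and by the 2-fold call between tissue means. Genes without reads are found in clans 3 and 4 and among the unnumbered genes, while all 12 clan 2 and mitochondrial genes had reads.

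Most P450 genes with enough reads to compare were higher in the VG, and a smaller group, with 4 of the 5 genes annotated as ecdysteroid enzymes, was higher in the ovary. With a mean of at least 10 in either tissue, 56 genes could be compared. Of these, 36 were 2-fold or more higher in the VG, 11 were 2-fold or more higher in the ovary and 9 were within 2-fold. Over the 11382 genes that met the same minimum, 33.1% were higher in the VG and 33.9% in the ovary. Another 31 P450 genes had reads but fell below the minimum. A gene that met the minimum in a single tissue had its direction fixed by that rule, though not the size of the difference. This was the case for 17 genes that met it in the VG alone and 6 in the ovary alone. Among the 33 that met it in both tissues, 19 were higher in the VG and 5 in the ovary, a count added after the values had been seen. No test belongs to these calls, which compare tissue means.

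The median log2 ratio of VG to ovary was 2.24 over the 75 P450 genes with reads in both tissues and 0.47 over all such genes. The VG mean was above the ovary mean in 59 of the 75, against 57.4% of all genes with reads in both tissues. The split depends on the scaling. When the means were scaled to the tissue totals without the 10 highest genes of each tissue, every log2 ratio fell by 1.75, and 26 P450 genes were then higher in the VG against 19 in the ovary. The same scaling gave 17.2% and 63.7% over all genes.

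**Figure D2:**
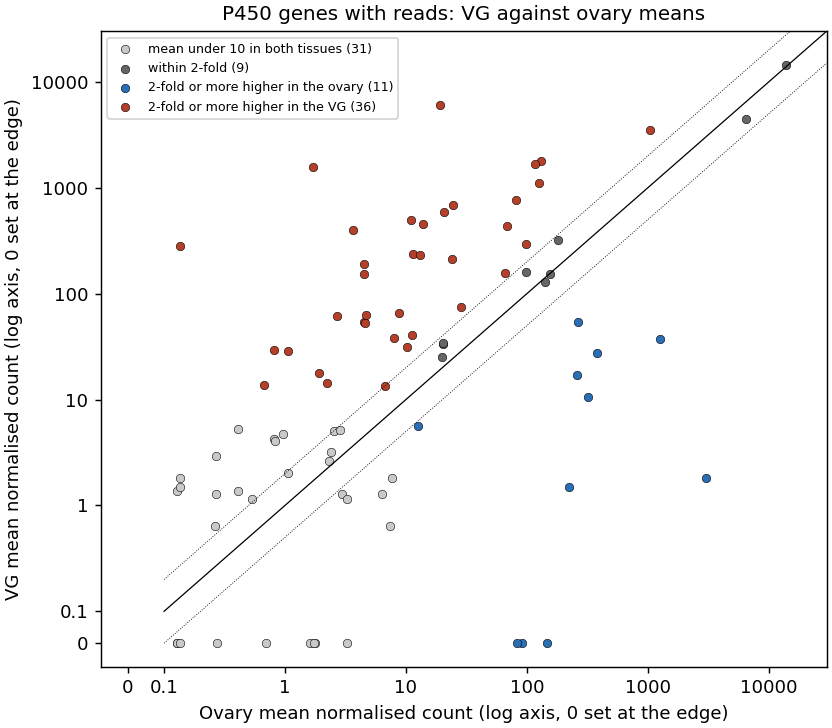
Mean normalised count in the VG (vertical, log axis) against the ovary (horizontal, log axis) for the 87 P450 genes with reads, 1 point per gene, with the line of equal means and dotted lines at 2-fold. As deposited, 36 genes lie above the band and 11 below it among the 56 genes compared, against 26 and 19 under the scaling by totals.

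Reads per library could be worked back from the tissue means for 89 of the 102 genes, because a mean is a whole-number combination of the 3 libraries' steps. The libraries recovered in this way are called a, b and c within a tissue and cannot be tied to the replicate numbers. The VG size factors were 0.525 for a, 0.450 for b and 0.287 for c. Of the 43 such genes with a mean of at least 10, all 3 VG libraries were above all 3 ovary libraries in 34 and the reverse held in 4. Over all genes treated in the same way, these shares were 50.5% and 28.5%. limma on log2(normalised count + 0.5) tested 59 P450 genes among 7861 genes, with Benjamini-Hochberg adjustment over all of them. It called 33 P450 genes higher in the VG, and 8 were called higher in the ovary, where 36.3% and 19.4% of all tested genes were called. The most abundant P450 genes were outside this test, since their reads could not be recovered.

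The ecdysteroid enzymes differed among themselves. In *Drosophila*, ecdysteroids are made from sterols by a series of P450 enzymes named after the Halloween genes. The gene annotated CYP307A1 (Nasvi2EG015618, relative of spook, an early step) was higher in the ovary, with means of 257 (ovary) and 17.1 (VG) and a log2 ratio of -3.91. Its VG libraries were at 19.1, 28.9 and 3.49. Its ovary reads were not resolved, but all 3 ovary libraries lay above all 3 VG libraries in each of the 3 combinations that fit.

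The gene annotated CYP306A1 (Nasvi2EG031935, relative of phantom, the 25-hydroxylase) was at 147, 143 and 133 in the ovary libraries and at 124, 180 and 83.6 in the VG libraries. The tissues overlapped, with a log2 difference of -0.20 (SE 0.29, adjusted p = 0.584). Without VG library c the difference was 0.08.

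The gene annotated CYP302A1 (Nasvi2EG010394, relative of disembodied, the 22-hydroxylase) was at 82.8, 82.6 and 81.3 in the ovary libraries and had no read in any VG library. Its ovary mean of 82.2 ± 0.812 (SD, n = 3) was at least 23.6-fold higher than the VG floor (adjusted p = 2.28e-05 by limma). The gene annotated CYP315A1 (Nasvi2EG004055, relative of shadow, the 2-hydroxylase) had means of 225 (ovary) and 1.48 (VG), and in the VG 2 reads were found, both in library b. The ratio was 152, with a 95% counting interval of 42.0 to 1253 from those 2 reads. No gene of the set is annotated CYP314A1, the enzyme that makes the active hormone in *Drosophila*.

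The gene annotated 18a1 (Nasvi2EG031936), whose *Drosophila* relative inactivates 20-hydroxyecdysone, was at 258, 400 and 297 in the ovary libraries and at 7.63, 6.66 and 17.4 in the VG libraries. The groups did not overlap, and the ovary mean was 30.1-fold higher (log2 difference -4.95, SE 0.41, adjusted p = 0.000144). Its numbering neighbour is CYP306A1, which did not pass the test. Thus 4 of the 5 genes annotated as an enzyme that makes or inactivates ecdysteroids were 2-fold or more higher in the ovary. Under the scaling by totals CYP306A1 was higher in the ovary too, with a log2 ratio of -1.88. Over all compared genes, 33.9% were higher in the ovary as deposited and 63.7% under that scaling.

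Of the genes annotated with clan 2 names outside the ecdysteroid pathway, one gene annotated CYP305A1 (Nasvi2EG013407) had means of 19.9 and 25.3 in the ovary and VG, and its libraries overlapped (adjusted p = 0.467). The other (Nasvi2EG014999) was at 0.387, 0.405 and 0.435 in the ovary and at 5.72, 6.66 and 3.49 in the VG, a log2 difference of 2.63 (SE 0.43, adjusted p = 0.00253). It rests on few reads. The gene annotated CYP303A1 (Nasvi2EG013822), whose relative acts in bristle mechanosensation in *Drosophila*, had an ovary mean of 1.73 and no VG read. No gene is annotated 15A1, the epoxidase of juvenile hormone synthesis.

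The mitochondrial gene annotated 49a1 (Nasvi2EG012139) was at 19.4, 30.0 and 22.2 in the ovary and at 295, 77.7 and 265 in the VG. Every VG library was above every ovary library, and the log2 difference was 2.94 (SE 0.54, adjusted p = 0.00403). Its numbering neighbour annotated CYP301A1 (Nasvi2EG012138) was at 93.3, 99.2 and 105 in the ovary and at 196, 120 and 164 in the VG, a log2 difference of 0.66 (SE 0.22, adjusted p = 0.0398). This call was lost without the variance trend, with no minimum mean and when any library other than VG library b was left out. The 2 genes annotated 12a5 had few reads, with means of 0.270 and 0.129 in the ovary and of 1.27 and 0 in the VG.

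**Figure D3:**
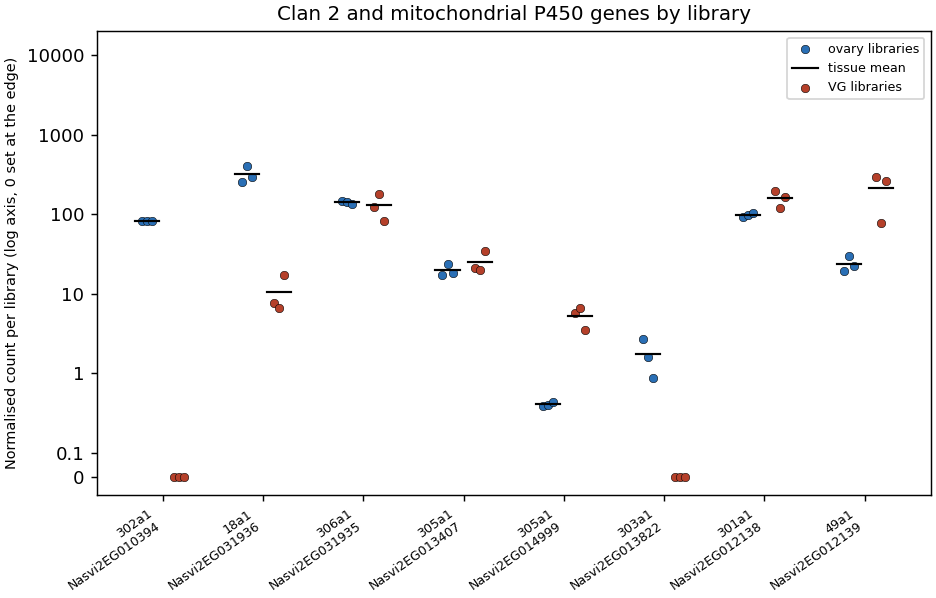
Normalised counts per library (vertical, log axis) of 8 clan 2 and mitochondrial P450 genes whose reads were recovered, with 3 ovary and 3 VG libraries per gene as points and the tissue mean as a line (none drawn at 0). The genes CYP302A1 and 18a1 lie higher in the ovary, 49a1 higher in the VG, and CYP306A1 overlaps.

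Clan 3 (34 genes) and clan 4 (33 genes) held most of the genes higher in the VG. In clan 3, 14 of 18 compared genes were higher in the VG and 3 in the ovary. In clan 4, the counts were 13 and 4 of 19. The genes without a family number had 8 of 10 higher in the VG and none in the ovary. In clan 2, 2 of 4 compared genes were higher in the ovary and none in the VG, and in the mitochondrial clan 2 of 4 were higher in the ovary and 1 in the VG. Over all compared genes, 33.1% were higher in the VG and 33.9% in the ovary. With 4 compared genes each, clan 2 and the mitochondrial clan allow no contrast with these shares. Under the scaling by totals, the counts of genes higher in the VG and in the ovary were 10 and 4 in clan 3, 11 and 6 in clan 4, 4 and 1 among the unnumbered genes, 0 and 4 in clan 2, and 1 and 3 in the mitochondrial clan. That scaling gave 17.2% and 63.7% over all compared genes.

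**Figure D4:**
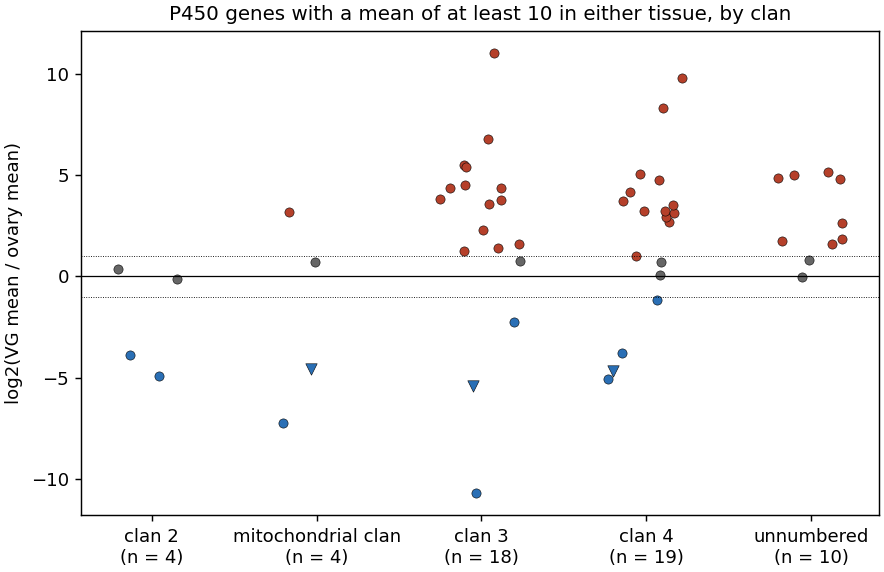
Log2 of VG mean over ovary mean (vertical) for the compared P450 enzyme genes, grouped by clan, 1 point per gene, with red for genes 2-fold or more higher in the VG, blue for the ovary and grey for neither. Triangles mark 3 genes without VG reads, placed at the VG floor. In clan 3, 14 of 18 genes lie above the upper dotted line as deposited and 10 under the scaling by totals. Over all compared genes, 33.1% were higher in the VG as deposited and 17.2% under that scaling.

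Within clan 3, all 5 compared genes annotated 6k1 were higher in the VG, against 33.1% of all compared genes. Only Nasvi2EG011300 met the minimum mean in both tissues, so the direction of the other compared 6k1 genes was fixed by the minimum. The largest ratio was that of Nasvi2EG009498, with a single read in ovary library b and values of 212, 284 and 349 in the VG libraries. Its ratio was 2086, with a 95% counting interval of 374 to 82376 from that read. The gene Nasvi2EG021643 was at 5.03, 3.24 and 2.61 in the ovary and at 414, 275 and 512 in the VG (log2 difference 6.60, SE 0.36, adjusted p = 3.58e-05). The VG exceeded the ovary 110-fold. The other 3 were 2.60-fold to 11.9-fold higher in the VG. Under the scaling by totals, 3 of the 5 stayed 2-fold or more higher.

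Among the 6 compared genes annotated 9e2, 5 were higher in the VG and 1 in the ovary. Nasvi2EG001276 had means of 132 and 1776, and its VG libraries were above its ovary libraries in every combination that fits. Nasvi2EG008106 was at 15.5, 13.8 and 3.91 in the ovary and at 682, 262 and 544 in the VG, with no overlap (log2 difference 5.52, SE 0.60, adjusted p = 0.000434). The exception was a gene annotated as a fragment, Nasvi2EG018100, with 262 in the ovary and 54.2 in the VG.

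The genes annotated 6a2, named after a *Drosophila* enzyme linked to insecticide metabolism, went both ways. Nasvi2EG005108 had the second highest ovary mean of all P450 enzymes, 3016, and a VG mean of 1.80 that rests on 2 reads. The ratio was 1678, with a 95% counting interval of 465 to 13857. Nasvi2EG004557 was at 197, 130 and 112 in the ovary with no VG read, which is at least 42.0-fold higher in the ovary (adjusted p = 2.43e-05).

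In the other direction, Nasvi2EG016303, also annotated 6a2, was at 8.13, 3.64 and 1.74 in the ovary and at 252, 133 and 192 in the VG, a log2 difference of 5.43 (SE 0.54, adjusted p = 0.000313). Over the 5 compared 6a2 genes the median log2 ratio was 0.74, and it turned to -1.01 under the scaling by totals. Of the genes annotated 6a13, Nasvi2EG013360 had means of 116 and 1656, and its VG libraries were not settled. Another, Nasvi2EG006493, was at 7.74, 6.48 and 8.70 in the ovary and at 1.91, 0 and 3.49 in the VG and was called higher in the ovary (log2 difference -2.26, SE 0.79, adjusted p = 0.0482). That call was lost with no minimum mean, without the variance trend, and when VG library a or any ovary library was left out.

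In clan 4, the most abundant P450 transcript in both tissues was annotated 4g15 (Nasvi2EG009254). CYP4G enzymes carry out the last step of hydrocarbon synthesis in *Drosophila* oenocytes. Its means of 13730 (ovary) and 14553 (VG) were 61.2% and 38.8% of all P450 enzyme counts in each tissue. The ratio was 1.06 as deposited, and its log2 ratio was -1.67 under the scaling by totals. Of the other 4g15 genes, 2 were higher in the VG and 1 in the ovary. Nasvi2EG009765 had means of 1.72 (ovary) and 1555 (VG), and its VG libraries lay above its ovary libraries in every combination that fits. Nasvi2EG013401 was at 97.9, 211 and 67.0 in the ovary and at 1721, 624 and 951 in the VG (log2 difference 3.17, SE 0.52, adjusted p = 0.00248). Nasvi2EG006878 was under the minimum mean, at 7.74, 4.45 and 6.96 in the ovary and at 3.81, 0 and 0 in the VG, and was called higher in the ovary (log2 difference -2.71, SE 0.91, adjusted p = 0.0419). That call was lost with no minimum mean, with voom weights, and when any library other than VG library a was left out.

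The 22 genes annotated 4C1 made up the largest named group. Of the 12 that could be compared, 11 were higher in the VG, with 1 in the opposite direction. Over all compared genes, the shares were 33.1% and 33.9%. Only Nasvi2EG000732, Nasvi2EG005578 and Nasvi2EG012056, all higher in the VG, met the minimum mean in both tissues. For the other compared 4C1 genes the minimum fixed the direction, though not the size of the difference. The highest 4C1 gene was Nasvi2EG005578, with 15.5, 17.4 and 23.9 in the ovary libraries and a VG mean of 6074, 321-fold higher. It was the second most abundant P450 enzyme of the VG, with 16.2% of the P450 counts. Nasvi2EG000732 was at 59.2, 87.9 and 94.8 in the ovary and at 1312, 484 and 509 in the VG (log2 difference 3.11, SE 0.42, adjusted p = 0.00106). Nasvi2EG020600 was at 2.32, 7.69 and 3.48 in the ovary and at 137, 171 and 146 in the VG (log2 difference 5.07, SE 0.44, adjusted p = 0.000176).

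The 1 compared 4C1 gene higher in the ovary was Nasvi2EG008685, at 110, 86.6 and 75.2 in the ovary with no VG read, at least 25.99-fold higher in the ovary (adjusted p = 2.49e-05). limma tested 16 of the 4C1 genes and called 9 higher in the VG against 3 in the ovary, 2 of them under the minimum mean. Nasvi2EG007621 was at 9.29, 8.10 and 4.78 in the ovary and at 1.91, 0 and 0 in the VG (log2 difference -3.18, SE 0.73, adjusted p = 0.0102), a call lost without ovary library a. Nasvi2EG007360 was at 4.26, 2.02 and 3.48 in the ovary with no VG read (adjusted p = 0.00337), a call lost with voom weights. The 2 genes annotated 4c3 were both higher in the ovary. Nasvi2EG003569 had means of 1262 (ovary) and 37.1 (VG), a 34.0-fold difference, and Nasvi2EG010254 had 380 and 27.3. The libraries of Nasvi2EG010254 were not settled by the means.

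Among the unnumbered genes, Nasvi2EG020286, annotated monooxygenase, had means of 1041 and 3494 and so was abundant in both tissues. Its log2 ratio of 1.75 became -0.0030 under the scaling by totals. Nasvi2EG022282 was at 12.4, 19.8 and 9.13 in the ovary and at 511, 486 and 355 in the VG (log2 difference 5.03, SE 0.33, adjusted p = 6.06e-05). Nasvi2EG006972 was at 18.6, 26.3 and 16.5 in the ovary and at 562, 719 and 505 in the VG (log2 difference 4.84, SE 0.25, adjusted p = 3.17e-05). Nasvi2EG008411 had means of 24.6 and 689, and Nasvi2EG022264 of 0.806 and 29.2. In these 4 genes with known reads, every VG library was above every ovary library, as in 50.5% of all genes treated in the same way. The 4 genes were named for a large ratio or VG mean, so this is no separate result.

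**Figure D5:**
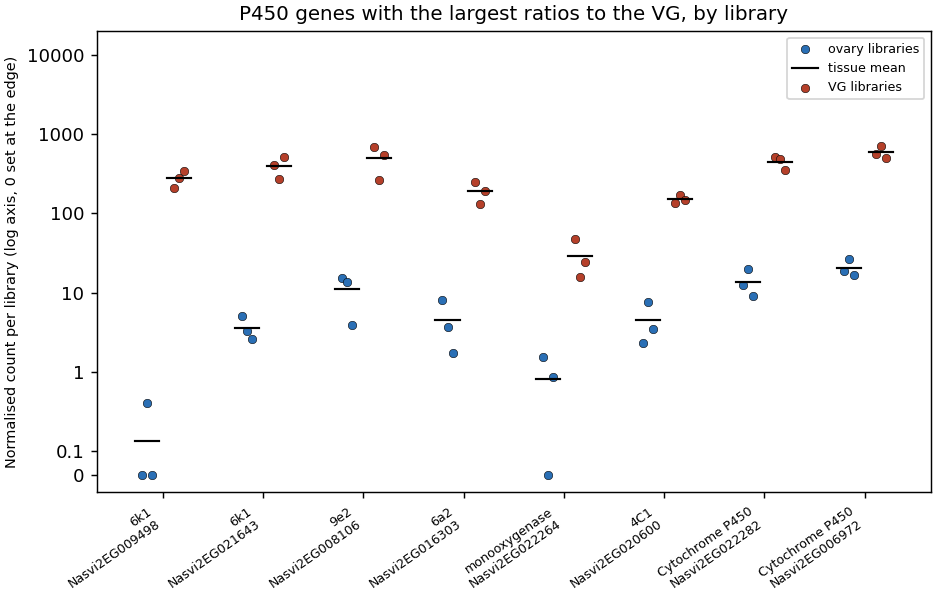
Normalised counts per library (vertical, log axis) of the 8 P450 genes with known reads among the 10 with the largest ratio to the VG, with 3 ovary and 3 VG libraries as points and the tissue mean as a line. In each gene every VG library lies above every ovary library, for example 212 to 349 against a single ovary read in the 6k1 gene Nasvi2EG009498. The genes were picked by that ratio, so the separation follows from the choice and is no separate result. Over all genes treated in the same way the share was 50.5%.

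Genes with close identifiers were also compared. P450 genes at most 3 numbers apart formed 17 runs that held 42 of the 102 genes, the longest with 5. A run could show both directions only where 2 of its genes were called by the 2-fold rule, which held for 3 runs, and in these the called genes were higher in the VG. In all, 4 runs held both a gene without reads and a gene with a mean of at least 10. The authors listed reads with multiple alignments apart from reads assigned to genes, so close copies may have lost reads. Values of such neighbours, also of those without reads, are uncertain.

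The P450 reductase (Nasvi2EG007741) had means of 6459 (ovary) and 4438 (VG), within 2-fold as deposited, and a log2 ratio of -2.29 under the scaling by totals. Of the 28 genes in the redox and haem list, 24 could be compared, with 6 higher in the VG (25.0%), 4 in the ovary (16.7%) and 14 within 2-fold. Over all compared genes, 33.1% were higher in the VG and 33.9% in the ovary. Adrenodoxin (Nasvi2EG008998) and its reductase (Nasvi2EG008046), which serve the mitochondrial P450 enzymes, were at 134 and 346 in the ovary and at 179 and 332 in the VG. One gene for cytochrome b5 (Nasvi2EG006525), an electron donor to some P450 enzymes, was higher in the VG at 3121 against 587, and another (Nasvi2EG006526) was higher in the ovary at 525 against 134.

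Of the 121 conjugating enzymes, esterases and transporters in the second list, 80 could be compared, with 48 higher in the VG (60.0%) and 20 in the ovary (25.0%). Of the 24 genes in the hormone list, 15 could be compared, with 6 higher in the VG (40.0%) and 5 in the ovary (33.3%), near the 33.1% and 33.9% over all compared genes. Among these, a juvenile hormone esterase (Nasvi2EG016304), which breaks down juvenile hormone, was at 1.94, 0.405 and 0.870 in the ovary and at 95.3, 26.6 and 38.3 in the VG (log2 difference 5.01, SE 0.61, adjusted p = 0.000728). Juvenile hormone epoxide hydrolase 1 (Nasvi2EG007080) was higher in the ovary, at 4289 against 1065.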

How the data were processed

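RNA was sequenced from 3 VG and 3 ovary replicates. The authors trimmed reads to a Phred score of 20, mapped them with Tophat2, counted them on exons by strand with HTSeq-count over gene set version 2, and scaled them with DESeq. No genome build is named in the sources used here. The deposited signal is the authors' mean of normalised counts over the libraries of each tissue. The deposited table also holds the authors' fold changes and p-values, which were not used. Which column belongs to which tissue was taken from a supplementary table, of which 1998 genes were at hand, all with equal values.

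Tissue means, not counts per library, were deposited, so the planned count test could not be run. Calls were 2-fold or more with a mean of at least 10 in either tissue. Reads per library were worked back from means up to 400 (ovary) and 2000 (VG). These limits were raised from 200 and 1000 after the first recovery had been seen, partly so that hormone enzymes might be resolved. Recovered values were tested with limma 3.58.1 in R 4.3.3, with a minimum mean of 1.

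The model was chosen after results had been seen. limma without a variance trend was run first, and its P450 calls were seen. It then called too many unchanged genes in simulated data. In all, 24 simulated settings of filter, model and dispersion were compared, and 14 settings were run on the data. The design allowed a variance trend where needed, and the fit with the trend was taken as the main one when its P450 calls, and those with voom weights, were already known. Raising the minimum mean to 10 without the trend was the other remedy considered. That minimum is given as an alternative with the trend kept.

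P450 genes and lists were chosen with earlier results of these data known. Genes named in full are the hormone enzymes, the reductase, the 10 highest in each tissue and the 10 with the largest ratio in each direction. Other genes, such as CYP301A1 and 49a1, were chosen after their values were seen. P-values measure the spread between pools. Python 3.11.15 was used with matplotlib 3.10.9, scipy 1.17.1, pandas 2.3.3 and numpy 2.4.6.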

Additional observations from a re-analysis of the deposited data

How the results depend on the processing

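The 2-fold counts (36 higher in the VG, 11 in the ovary) were 26 and 19 when scaled to totals without the 10 highest genes, 55 and 16 with no minimum mean, 21 and 8 with a minimum mean of 100, and 19 and 5 when both tissues had to reach 10. Under the scaling by totals, the log2 ratio of Nasvi2EG020286 changed from 1.75 to -0.0030. Among P450 genes with known reads (31 and 5), leaving out 1 library gave 30 to 31 and 4 to 5. Known reads thus covered 31 of the 36 genes higher in the VG but only 5 of the 11 higher in the ovary. With a mean of at least 10 as the detection limit, 39 P450 genes were detected in the ovary and 50 in the VG, against 87 and 75 with any read, so the order of the tissues turned round.

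The limma counts (33 and 8) were 31 and 7 without the variance trend, which was the first fit run, 36 and 6 with voom weights, 28 and 4 of 39 genes with a minimum mean of 10, and 32 and 7 of 57 genes with the first recovery limits. These 4 alternatives and the requirement in both tissues were chosen after seeing the data. Leaving out 1 library gave 29 to 34 and 5 to 9. Without ovary library a, the count for the ovary was 5. Of the 41 calls, 35 to 39 were kept when 1 library was left out, and none that was kept in any alternative changed direction. The difference for CYP306A1 (Nasvi2EG031935), which was not called, ranged from -0.47 to 0.082 when 1 library was left out, and turned positive without VG library c. The cause of these changes was not tested.

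No paired analysis was possible because the table holds tissue means, and libraries recovered from them carry no replicate number. Depth limits the VG most, where a gene without reads may have a mean of up to 3.49, and P450 genes with means above the recovery limits have no spread.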
